A study of Homo sapiens with 12 samples.

Results

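The genes described are 39 genes of homologous recombination, the Fanconi anemia pathway and the DNA damage checkpoint, chosen by symbol from a named list. All 39 were among the 28512 genes of the deposited files, and all 39 were among the 14232 genes with enough signal to be tested. They were followed in SUM159, MDAMB231 and HCC1806, 3 established human lines of triple-negative breast cancer (tumours without the hormone receptors and HER2 amplification), each kept for 72 h in the vehicle DMSO, in JQ1, in GSK2801 or in JQ1+GSK2801. JQ1 occupies the bromodomains of BET proteins, and GSK2801 those of BAZ2A and BAZ2B. The JQ1 dose was 300 nM in SUM159, 100 nM in MDAMB231 and 500 nM in HCC1806, and GSK2801 was at 10 µM in every line. HCC1806 was also grown in another medium, without the insulin and hydrocortisone that the labels list for the medium of SUM159 and MDAMB231. Line, JQ1 dose and medium therefore cannot be told apart. There was 1 polyadenylated RNA library per line and treatment, so a treatment has n = 3 lines and no replicate culture within a line.

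Homologous recombination repairs DNA double-strand breaks by copying the intact sister chromatid. Broken ends are first resected to single strands, BRCA1, PALB2 and BRCA2 then promote invasion of the intact strand with help from the BCDX2 complex, and helicases and nucleases resolve the joint molecules. The Fanconi anemia proteins unhook crosslinks between the strands and hand the break to the same machinery, while ATM and ATR signal the damage to the checkpoint kinases. Many of these genes are transcribed mainly in S and G2 phase, and loss of BRCA1 or BRCA2 function is a known feature of part of triple-negative breast cancers.

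Depth ranged from 24200000 to 46800000 estimated reads per library, with 15766 to 16797 entries above 0, and the 10 highest genes took 4.36% to 7.57% of the signal. Each value was taken as an estimated read count scaled to a common upper quartile, since the upper quartile over values above 0 was 1663.93 in every library. It is not divided by gene length, so levels are compared between libraries and not between genes. HEXIM1, a widely used readout of BET inhibition, rose in all 3 lines with JQ1, by 1.23 ± 0.08 on the log2 scale (SE, n = 3 lines). Of the 6 epithelial markers, EPCAM, CDH1 and KRT5 were at least 9941 in all 4 HCC1806 libraries and at most 375 in the others, KRT8 and KRT18 were at least 1075 in all 12, and KRT14 was at most 91.6 in all 12. Of the 4 mesenchymal markers, VIM and ZEB1 were at least 1540.3 in SUM159 and MDAMB231 and at most 173 in HCC1806. CDH2 was at least 5173 in SUM159, 705 to 1412 in HCC1806 and at most 17.3 in MDAMB231, and FN1 was at least 6424 in all 12. Markers of other cell types were present too. The macrophage marker CD68 was at 344 to 8767 over the 12 libraries, while the T cell marker CD3E was at most 1.17, the endothelial marker CDH5 at most 33.1 and the fibroblast marker LUM at most 27.1. The fibroblast markers COL1A1 (10269 to 46871) and PDGFRA (165 to 6604) and the endothelial marker PECAM1 (227 to 1145) were higher in every SUM159 library than in any of the other lines. Each of them, the fibroblast marker DCN (12.7 to 227) and the leukocyte marker PTPRC (422 with DMSO, 60.4 with GSK2801 and at most 4.25 with JQ1 or both) was lower in the JQ1-containing libraries of SUM159 than in its others, and their part in the results was not tested. In bulk RNA, fewer cells in a state that transcribes a gene and less RNA per cell cannot be told apart.

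Outside MDAMB231, nearly all of the 39 genes lay within 2-fold of DMSO. The colour map of log2 ratios to DMSO of the same line shows this by role. In MDAMB231 the median ratio of the 39 genes was −0.75 with JQ1 and −1.28 with both compounds, against −0.03 for all tested genes in each case. In SUM159 the corresponding medians were 0.04 and −0.09, and in HCC1806 0.19 and 0.02. A total of 24 of the 39 genes, 61.5%, lay at least 2-fold below DMSO in MDAMB231 with both compounds, where 14.3% of all tested genes did. With JQ1 alone that was 8 genes (20.5%) in MDAMB231, against 9.17% of all tested genes. In SUM159 only 1 gene with JQ1 and 2 genes with both were 2-fold below DMSO, where 13.3% and 15.2% of all tested genes were. In HCC1806 the counts were 0 and 2, against 10.1% and 13.5%. With 1 library per line and treatment these within-line ratios carry no test.

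**Figure D1:**
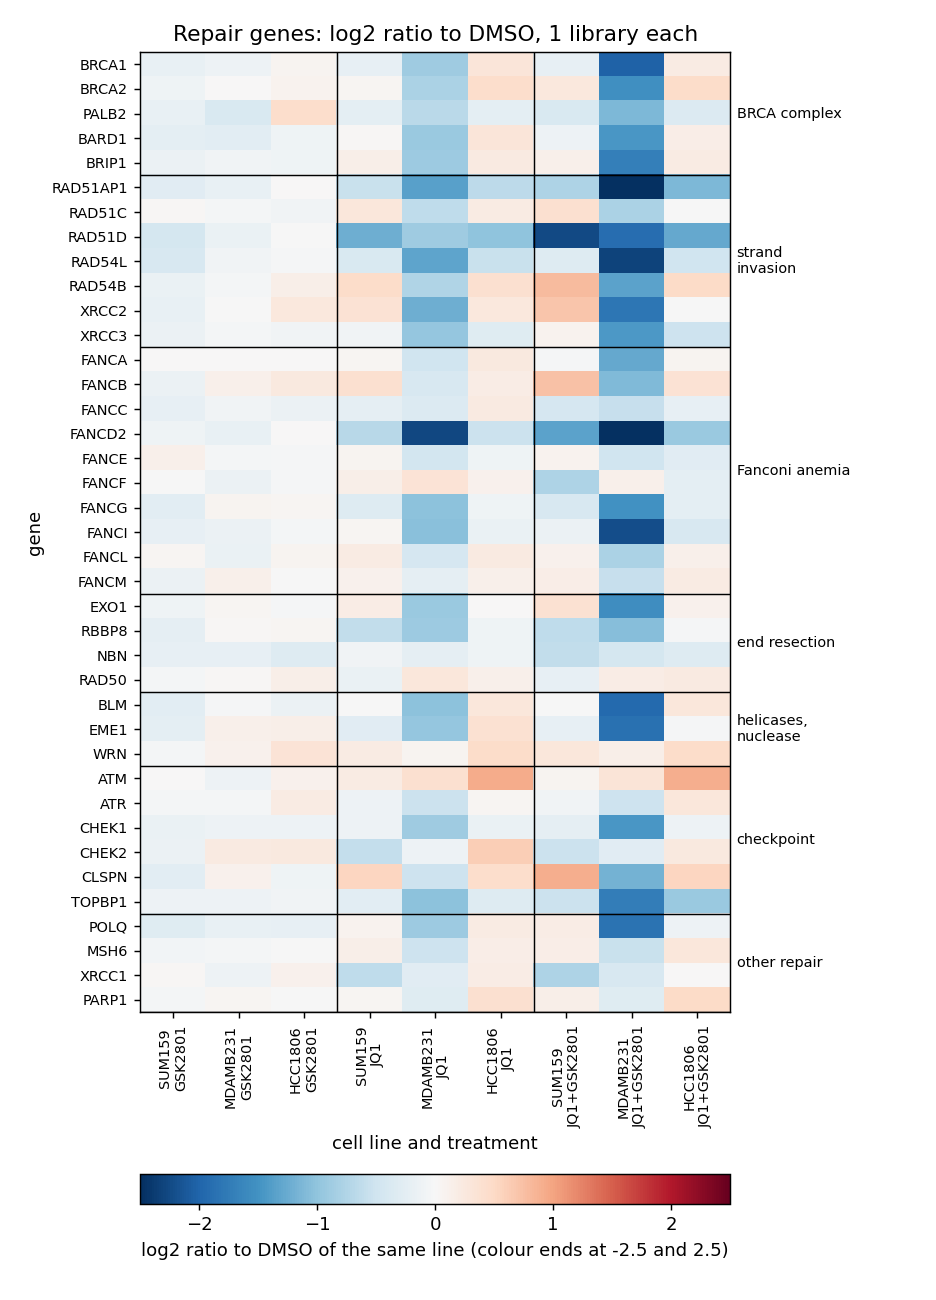
Log2 ratio of each of the 39 genes (rows, grouped by role) to the DMSO library of the same cell line (columns: 3 lines with GSK2801, JQ1 and both), with 1 library per cell. Blue marks values below DMSO and red above. The MDAMB231 columns with JQ1 and with both are blue in most rows, with medians of −0.75 and −1.28. In all 3 lines 11 genes with JQ1 and 13 with both lie below DMSO, RAD51D, RAD51AP1 and FANCD2 among them. The genes below DMSO in all 3 lines were not counted over all tested genes.

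Averaged over the lines, the JQ1 libraries differed from DMSO in 2 of the 39 genes, and the libraries with both compounds in 8. These tests used limma on log2(value + 1) with the cell line as a block, and adjusted p-values are Benjamini-Hochberg over all 14232 genes with a threshold of 0.05. With JQ1, RAD51D was lower and ATM was higher. In this contrast 13.1% of all tested genes passed as lower and 9.52% as higher. With both compounds FANCD2, RAD51D, RAD51AP1, TOPBP1, PALB2, RBBP8, NBN and FANCC, 8 of the 39, were lower and none was higher, against 19.8% and 15.0% of all tested genes. The share of the 39 genes that passed as lower was thus near the share of all genes. Their median was −0.19 with JQ1 and −0.40 with both, beside −0.08 and −0.09 over all tested genes. The JQ1 and combination contrasts share their DMSO libraries. Dropping the line block left no member past the threshold in either contrast. With the line block but another scaling, the direction split with both compounds changed. TMM rescaling gave 5 lower and 2 higher, the latter being ATM and WRN, and quantile normalization gave 5 lower and 1 higher. Fitted to the 6 DMSO and combination libraries alone, RAD51D was the 1 member that passed, and the other 7 had adjusted p-values from 0.0611 to 0.223. Leaving out replicates gave 3 to 9 lower. It was 3 without SUM159 or without HCC1806 and 5 without MDAMB231. It was 5 without the SUM159 DMSO library, without the MDAMB231 JQ1 library or without the MDAMB231 combination library, and 4 without the MDAMB231 DMSO library. For JQ1 alone the number lower was 0 without SUM159 or without HCC1806, and 6 without the MDAMB231 combination library, where RAD51AP1, RAD54L, FANCD2, RBBP8 and TOPBP1 joined RAD51D. With both compounds, CLSPN passed as higher without MDAMB231, ATM passed as higher and XRCC3, RAD54L and FANCI as lower without the SUM159 combination library, and RAD54L and FANCG passed as lower without the MDAMB231 GSK2801 library.

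Among the strand invasion genes, RAD51D and RAD51AP1 fell. Values below are listed in the order SUM159, MDAMB231, HCC1806. RAD51D (chromosome 17, 35092208 to 35121522 in GRCh38), a subunit of the BCDX2 complex that acts in strand invasion, was at 690.4, 657 and 297 with DMSO, 509, 585 and 296 with GSK2801, 294, 355 and 148 with JQ1, and 144, 175 and 122 with both. It was lower with JQ1 than with DMSO in every line, and lowest with both compounds, so within a line the libraries with and without JQ1 did not overlap. Across lines they did, because HCC1806 had about as little RAD51D with DMSO as SUM159 had with JQ1. The log2 difference was −1.04 ± 0.19 with JQ1 (adjusted p = 0.00699, limma) and −1.81 ± 0.19 with both (adjusted p = 3.63e-04), lower in 3 of 3 lines each time. The JQ1 difference missed the threshold without any 1 line (adjusted p = 0.0505 to 0.0615), and the combination difference passed in each of those cases. RAD51AP1 (chromosome 12, 4538798 to 4560048), which stimulates strand pairing, was at 807, 1145 and 1239 with DMSO, 665, 1008 and 1239.8 with GSK2801, 549, 445 and 785 with JQ1, and 471, 196 and 571 with both. It fell with both compounds by 1.48 ± 0.31 on the log2 scale (adjusted p = 0.00712), deepest in MDAMB231, and its JQ1 difference of −0.86 ± 0.31 did not pass (0.0796). Without HCC1806 the combination value was −1.66, with an adjusted p of 0.0781, and with the 6 DMSO and combination libraries alone the adjusted p was 0.0667. RAD54L, a motor protein that drives strand invasion, had a combination difference of −1.05 ± 0.38 that did not pass (adjusted p = 0.0619). The BCDX2 genes RAD51C and XRCC2, the related gene XRCC3 and the motor protein RAD54B did not pass either, with differences of −0.13, −0.38, −0.62 and −0.02.

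In the Fanconi anemia group, FANCD2 and FANCC passed with both compounds. FANCD2 (chromosome 3, 10026414 to 10101930), which is ubiquitinated together with FANCI and marks the crosslink, was at 1968, 1565 and 3003 with DMSO, 1829, 1375 and 3027 with GSK2801, 1209.6, 320.5 and 2079.6 with JQ1, and 775, 67.4 and 1583 with both. The combination library of MDAMB231 held 4.31% of that line's DMSO value, while the SUM159 and HCC1806 combination libraries held 39.4% and 52.7%. The mean difference was −2.26 ± 0.62 with both (adjusted p = 0.0208) and −1.17 ± 0.62 with JQ1, where it did not pass (0.200). Without SUM159 the combination difference was −2.72 (adjusted p = 0.0892), without HCC1806 −2.93 (0.0723) and without the MDAMB231 DMSO library −1.68 (0.0865), and with the 6 libraries alone its adjusted p was 0.0932. Without MDAMB231 the JQ1 difference of −0.62 passed (adjusted p = 0.0406). FANCC, part of the core ubiquitin ligase complex, was at 788, 811 and 906 with DMSO, 679.7, 759.7 and 818 with GSK2801, 676, 641 and 1061 with JQ1, and 589, 545 and 784 with both. Its combination values were the lowest of the 4 in each line and its difference was small, −0.40 ± 0.14 (adjusted p = 0.0484), missing the threshold under TMM rescaling (0.0745), under quantile normalization (0.120), without any 1 line (0.0562 to 0.201) and without any 1 library other than the HCC1806 JQ1 library. The other 8 members of the group did not pass. FANCI, the partner of FANCD2, was at −0.92 ± 0.37 (adjusted p = 0.0824) and the core complex gene FANCG at −0.72 ± 0.27 (0.0677). FANCA, FANCB, FANCE, FANCF, FANCL and FANCM lay between −0.41 and −0.00.

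**Figure D2:**
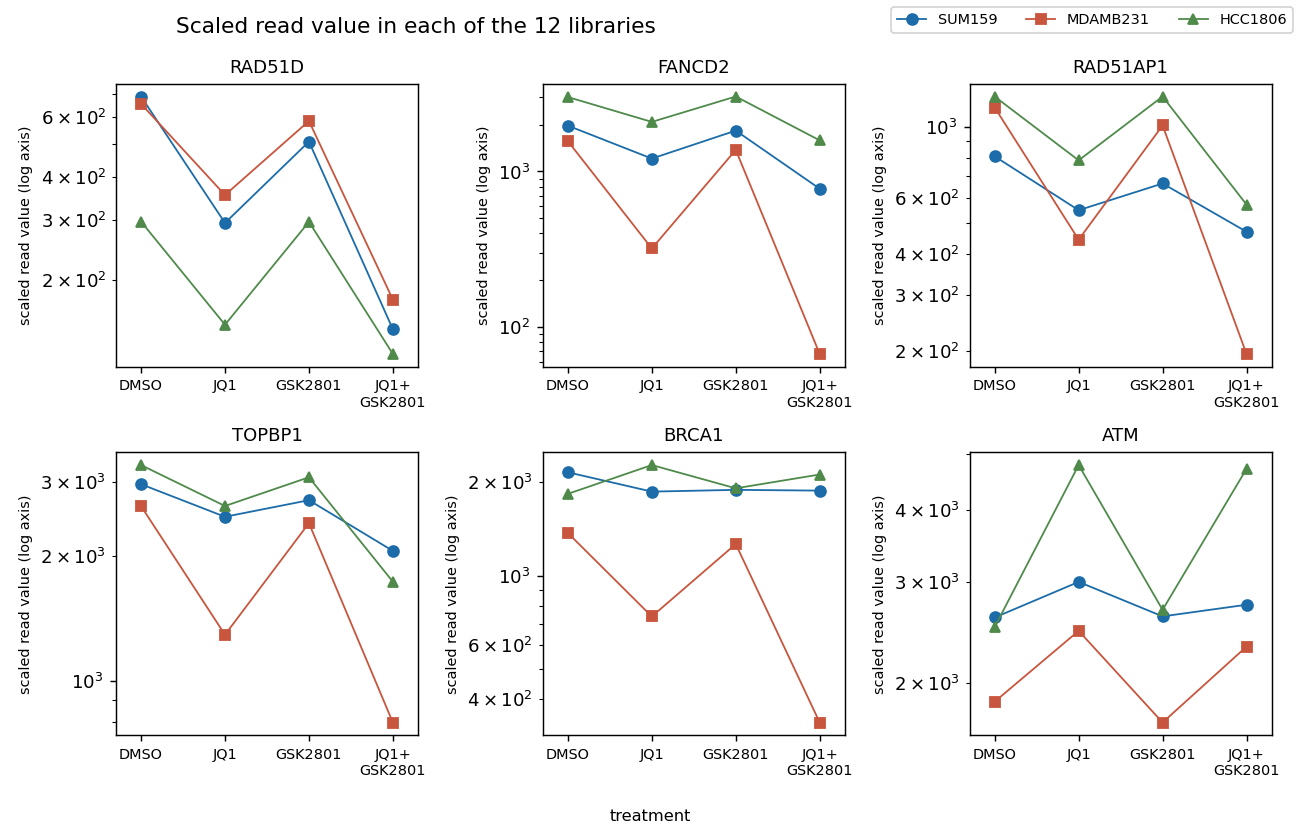
Scaled read value (log axis) of RAD51D, FANCD2, RAD51AP1, TOPBP1, BRCA1 and ATM in each of the 12 libraries, with 1 point per library, treatments on the horizontal axis and lines joining the libraries of a cell line. RAD51D falls with JQ1 and further with both in all 3 lines, FANCD2 falls to 67.4 in MDAMB231 with both, and ATM is highest in HCC1806 with JQ1 (4779.6).

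In the BRCA complex, PALB2 was the member that passed. PALB2, which bridges BRCA1 and BRCA2, was at 694, 775 and 437 with DMSO, 611, 598 and 589 with GSK2801, 587, 484 and 367 with JQ1, and 536, 357 and 345 with both. The combination libraries were the lowest of each line, and the difference was −0.61 ± 0.19 (adjusted p = 0.0333, limma). It missed the threshold under TMM rescaling (0.0593), under quantile normalization (0.104) and without any 1 line (0.0717 to 0.256), and the value without MDAMB231 was −0.36. It was also lost without any 1 of 5 libraries, namely the DMSO library of SUM159, the DMSO, JQ1 or combination library of MDAMB231 and the combination library of HCC1806. BRCA1 (chromosome 17, 43044295 to 43170245) was at 2149, 1371 and 1832 with DMSO, 1887, 1263 and 1909 with GSK2801, 1863, 739 and 2268 with JQ1, and 1877, 337 and 2114 with both. With both compounds it held 24.6% of its DMSO value in MDAMB231, 87.3% in SUM159 and 115% in HCC1806, and the mean difference of −0.67 ± 0.38 did not pass (adjusted p = 0.200). BRCA2 (chromosome 13, 32315474 to 32400266), which acts at the start of strand invasion, was at 1528, 2188 and 2927 with DMSO, 1424, 2206 and 3105 with GSK2801, 1576, 1272 and 3979 with JQ1, and 1841, 759.6 and 4048 with both. In the JQ1-containing libraries it too was below DMSO in MDAMB231 and above DMSO in HCC1806, with a mean difference of −0.26 ± 0.36 (0.603). BARD1, the ubiquitin ligase partner of BRCA1, and BRIP1, a helicase bound by BRCA1, had differences of −0.47 ± 0.30 and −0.46 ± 0.36 that did not pass.

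Of the 4 end resection genes, RBBP8 and NBN fell with both compounds. RBBP8, which encodes the resection factor CtIP, was at 5609, 4181 and 954 with DMSO, 4829, 4292 and 981 with GSK2801, 3653, 2218 and 883 with JQ1, and 3623, 1995 and 929.7 with both. It was lower with JQ1 and with both in SUM159 and MDAMB231, while all 4 HCC1806 libraries lay between 883 and 981. The combination difference of −0.58 ± 0.20 (adjusted p = 0.0478) missed the threshold under TMM rescaling (0.0698), quantile normalization (0.0615), no filter on low values (0.0624) and no variance trend (0.0734). Without MDAMB231 it was −0.33 (0.188), and without SUM159 −0.55 (0.237). Of the 12 single libraries, the call held without 3, the GSK2801 library of MDAMB231 and the DMSO and combination libraries of HCC1806. NBN, a subunit of the MRN complex that recognises broken ends, was at 3215, 4915 and 3030.2 with DMSO, 2776, 4288 and 2423 with GSK2801, 3014, 4219.9 and 2813 with JQ1, and 2093, 3610.1 and 2434 with both. The combination value was the lowest in SUM159 and MDAMB231 and about equal to the GSK2801 value in HCC1806, with a difference of −0.46 ± 0.10 (adjusted p = 0.00664). It missed the threshold without SUM159 (0.0616) and with the 6 libraries alone (0.114). RAD50, the MRN ATPase, and the exonuclease EXO1 did not pass, at 0.07 ± 0.11 and −0.35 ± 0.36. Among the helicases and nucleases of resolution, BLM (−0.56 ± 0.42), the nuclease subunit EME1 (−0.70 ± 0.38) and WRN (0.30 ± 0.12) did not pass.

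Of the 6 checkpoint genes, ATM passed as higher with JQ1 and TOPBP1 as lower with both compounds, 1 gene in each contrast. TOPBP1 (chromosome 3, 133598175 to 133662380), the activator of ATR, was at 2967, 2629 and 3298 with DMSO, 2716, 2393 and 3083 with GSK2801, 2479, 1292 and 2631 with JQ1, and 2053, 796 and 1732 with both. It was lowest with both compounds in every line, with a difference of −1.06 ± 0.22 (adjusted p = 0.00594), and the JQ1 difference of −0.54 ± 0.22 did not pass (0.105). The combination call was lost without HCC1806, at −1.13 (0.0788), and with the 6 libraries alone (0.0611). ATM (chromosome 11, 108222484 to 108369102), the kinase that answers double-strand breaks, was at 2600.4, 1858 and 2503 with DMSO, 2612, 1709.8 and 2682 with GSK2801, 2998, 2466 and 4779.6 with JQ1, and 2736, 2315 and 4708 with both. Both JQ1-containing libraries lay above the 2 others in each line, with the widest gap in HCC1806. The JQ1 difference of 0.52 ± 0.16 passed narrowly (adjusted p = 0.0499), and the combination difference of 0.43 ± 0.16 did not (0.0661). The JQ1 call was lost with a pseudocount of 10 (0.0506), no filter on low values (0.0665), no variance trend (0.0791), the 6 DMSO and JQ1 libraries alone (0.117) and without any 1 line (0.0669 to 0.185). It was 0.31 without HCC1806, and it was also lost without any 1 library other than the combination libraries of SUM159 and HCC1806. CHEK1, the kinase below ATR, was at 1365, 2455 and 2173 with DMSO, 1225, 2242 and 1977 with GSK2801, 1251, 1317 and 1934 with JQ1, and 1173, 891 and 1987 with both. Its JQ1 and combination values were low in MDAMB231, while the 4 libraries of each other line lay close together, and the combination difference of −0.60 ± 0.25 did not pass (0.0962). ATR, CHEK2 and the CHEK1 adaptor CLSPN did not pass, at −0.11, −0.20 and 0.09.

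The 4 other repair genes did not pass in any of the treatment contrasts. PARP1, which senses strand breaks and is the target of PARP inhibitors, was at 11911, 13617 and 11682 with DMSO, 11523, 14116 and 11614 with GSK2801, 12340.3, 11084 and 15433 with JQ1, and 13099, 11093 and 16374 with both. It was higher with JQ1 in HCC1806 and lower in MDAMB231, for a mean combination difference of 0.11 ± 0.17 (adjusted p = 0.635). The polymerase of alternative end joining, POLQ, was at −0.59 ± 0.38, the mismatch gene MSH6 at −0.03 ± 0.18 and the single-strand break scaffold XRCC1 at −0.38 ± 0.18. Several of the 39 genes, CHEK2, FANCD2, BRCA1 and PARP1 among them, have pseudogene copies, so reads may have been divided between copies and these values are less certain.

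GSK2801 alone moved none of the 39 genes past the threshold in limma, and 0 of all 14232 genes passed in either direction. At an unadjusted p under 0.05 there was 1 of the 39 genes, NBN at −0.24 ± 0.10, and 161 of all genes. The median of the 39 genes was −0.04. Adding GSK2801 to JQ1 likewise gave 0 of 39 genes and 0 of all genes past the adjusted threshold. At an unadjusted p under 0.05 there were 4 of the 39 genes and 1031 of all 14232. The 4 were RAD51D (−0.78 ± 0.19, adjusted p = 0.454), FANCF (−0.49 ± 0.19), TOPBP1 (−0.52 ± 0.22) and NBN (−0.32 ± 0.10). No member departed from additivity on the log2 scale at the adjusted threshold, and RAD51D was at −0.57 ± 0.27. Averaged over the lines, 35 of the 39 genes and 7080 of all 14232 were lower with both than with JQ1 alone. The same held for 31 of 31 mitosis genes and 39 of 40 DNA replication genes. Within the lines, 36 of the 39 genes were lower with both than with JQ1 alone in MDAMB231, with a median ratio of −0.54. In HCC1806 this held for 25 genes, with a median of −0.11, and in SUM159 for 19, with a median of 0.00. Within a line all tested genes were not counted in this way. RAD51D was lower with both than with JQ1 by 1.03 in SUM159, 1.01 in MDAMB231 and 0.28 in HCC1806, and FANCD2 by 0.64, 2.23 and 0.39.

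The lines differed in their response to JQ1. A second limma model estimated the JQ1 effect separately per line, as the mean of the effects without and with GSK2801. Its residual is each line's departure from additivity, so its p-values measure neither the spread between cultures nor that between lines. In MDAMB231, which had the lowest dose, 32 of 39 genes were lower and 2 higher, against 28.2% and 24.3% of all tested genes. In SUM159, 3 were lower and 4 higher, against 28.6% and 15.1%. In HCC1806, 4 were lower and 3 higher, against 26.3% and 23.8%. The medians of the 39 genes were −1.01, 0.01 and 0.10 in MDAMB231, SUM159 and HCC1806. A total of 21 genes were lower in MDAMB231 and passed in neither of the others, and RAD51D was lower in all 3. These patterns were not counted over all tested genes, so no background share stands beside them.

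In MDAMB231 the fall ran through all the roles. All 5 BRCA complex genes were lower, from PALB2 (−0.71 ± 0.14) to BRCA1 (−1.40 ± 0.21), and so were all 7 strand invasion genes, from RAD51C (−0.69 ± 0.11) to RAD51AP1 (−1.86 ± 0.22). Of the Fanconi genes 9 of 10 were lower, with FANCD2 at −3.31 ± 0.40 and FANCI at −1.56 ± 0.20, and FANCF did not pass (0.30 ± 0.21). RBBP8 (−1.01) and EXO1 (−1.26) were lower and RAD50 was higher (0.22, a call lost without any 1 library of SUM159 or MDAMB231), while NBN (−0.23) did not pass. BLM and EME1 were both at −1.47 and WRN did not pass. TOPBP1, CHEK1, CLSPN and ATR were lower, at −1.31, −1.11, −0.90 and −0.50. ATM was higher (0.42) and CHEK2 did not pass. POLQ (−1.29), MSH6 (−0.51) and PARP1 (−0.32) were lower, and XRCC1 did not pass (−0.28).

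In SUM159, CLSPN (0.85 ± 0.20), RAD54B (0.70 ± 0.17), XRCC2 (0.63 ± 0.21) and RAD51C (0.34 ± 0.11) were higher with JQ1. RAD51D (−1.52 ± 0.24), XRCC1 (−0.72 ± 0.12) and RBBP8 (−0.52 ± 0.09) were lower. CLSPN showed the opposite directions plainly. It was at 1184, 2499 and 1276 with DMSO, 985, 2702 and 1180.1 with GSK2801, 1711, 1756 and 1721 with JQ1, and 2214, 1107 and 1848 with both, so the JQ1-containing libraries were the highest in SUM159 and HCC1806 and the lowest in MDAMB231. The number higher in SUM159 depended on the scaling, with 8 higher and 3 lower under TMM rescaling and 9 higher and 3 lower under quantile normalization. The median of all genes in this effect was −0.13 as deposited and −0.02 under TMM. The number higher was 0 without the GSK2801 or the combination library of SUM159, or without any 1 HCC1806 library, and 2 without the DMSO or JQ1 library of SUM159. The number lower was 1 without the GSK2801 or the combination library of SUM159 and 5 without any 1 MDAMB231 library. Leaving out a library of another line left the SUM159 estimates unchanged and moved only their SE and adjusted p-values.

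In HCC1806, ATM (0.87 ± 0.08), PARP1 (0.45 ± 0.08) and MSH6 (0.24 ± 0.07) were higher with JQ1. RAD51D (−1.14 ± 0.24), RAD51AP1 (−0.89 ± 0.22), TOPBP1 (−0.58 ± 0.16) and PALB2 (−0.51 ± 0.14) were lower. TMM rescaling gave 5 higher and 4 lower, and quantile normalization 6 and 4. The counts were 1 higher and 0 lower without the GSK2801 or the combination library of HCC1806, and 8 higher and 7 lower without any 1 MDAMB231 library. In the latter case the HCC1806 estimates were unchanged, and only their SE and adjusted p-values moved. Without the DMSO or the JQ1 library of HCC1806 the number lower was 1.

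**Figure D3:**
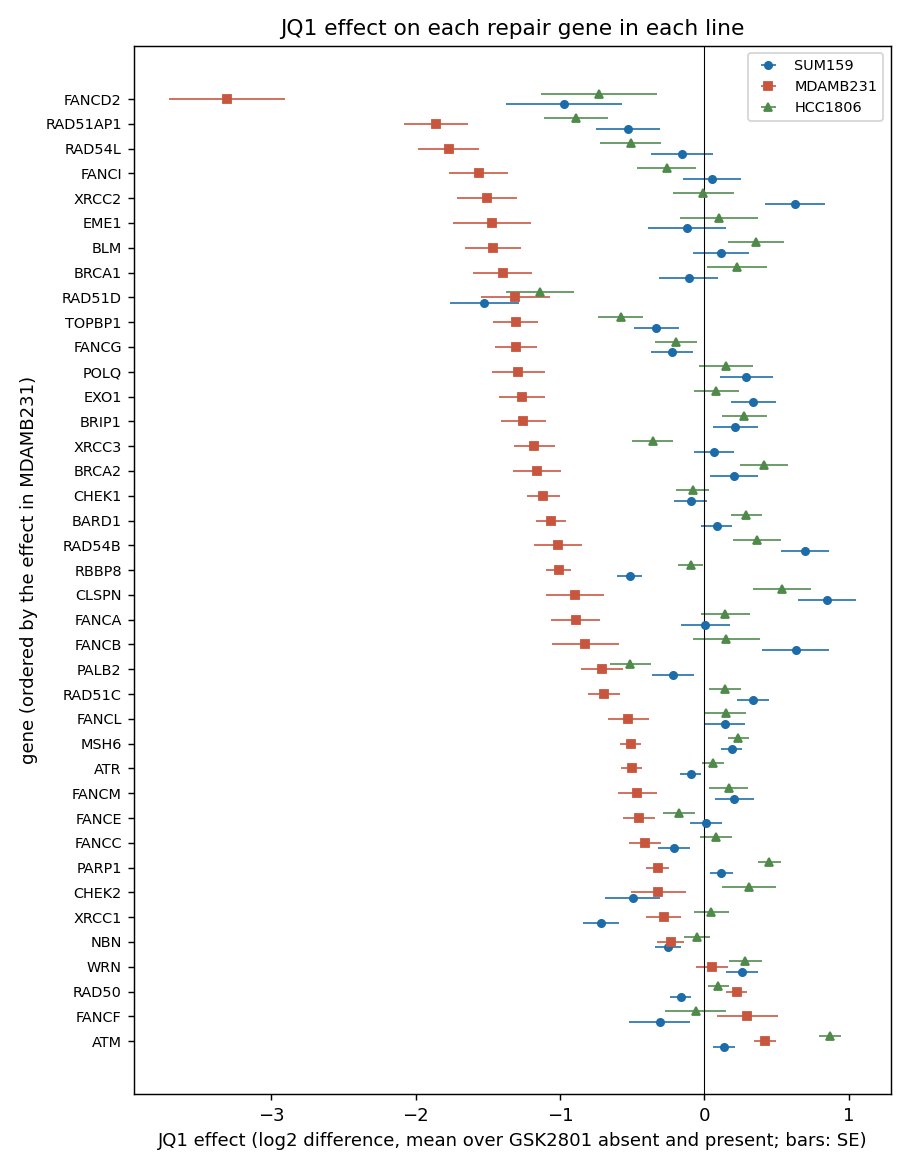
JQ1 effect (log2 difference, averaged over GSK2801 absent and present) on each of the 39 genes in each line, with the SE as bars, ordered by the effect in MDAMB231. The MDAMB231 points lie below 0 for 35 of 39 genes, whereas the SUM159 and HCC1806 points lie on both sides of 0, and RAD51D is below −1 in all 3 lines.

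The difference between lines was itself tested in that model. In MDAMB231 against SUM159, the JQ1 effect was lower in 26 of 31 mitosis genes and 32 of 40 DNA replication genes. None of either list was higher. The JQ1 effect was lower in MDAMB231 than in SUM159 in 28 of 39 genes and higher in 1, against 11.4% and 17.9% of all tested genes. The widest gaps were FANCD2 (−2.34 ± 0.57, adjusted p = 0.0210), XRCC2 (−2.13 ± 0.30), CLSPN (−1.75 ± 0.29) and RAD54B (−1.72 ± 0.24), and the gene with the higher effect was RAD50 (0.39 ± 0.10). RAD51D did not pass (0.21 ± 0.34, adjusted p = 0.659). Leaving out single libraries gave 2 to 25 lower. It was 2 without the combination library of SUM159, 3 without its GSK2801 library, 14 without its DMSO or JQ1 library, 17 without any 1 HCC1806 library and 18 without the GSK2801 or combination library of MDAMB231. The RAD50 call was lost without any 1 of the 12 libraries (adjusted p = 0.0510 to 0.114), under TMM rescaling (0.0510) and without the variance trend (0.0872). Without the DMSO library of SUM159, FANCF passed as higher in its place (1.06 ± 0.24, adjusted p = 0.0499), a gene at 0.61 ± 0.30 with all 12 libraries.

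The JQ1 effect in HCC1806 was also tested against the mean of the other lines. It was higher in 12 of 31 mitosis genes and 18 of 40 DNA replication genes. Of the 39 repair genes 12 were higher and none lower, where 14.5% and 10.6% of all tested genes passed. These were BLM (1.03 ± 0.24), BRCA1 (0.98 ± 0.25), BRCA2 (0.89 ± 0.20), BRIP1 (0.80 ± 0.19), BARD1 (0.78 ± 0.13), RBBP8 (0.67 ± 0.11), ATM (0.59 ± 0.09), PARP1 (0.55 ± 0.10), XRCC1 (0.55 ± 0.15), CHEK1 (0.52 ± 0.14), MSH6 (0.40 ± 0.09) and ATR (0.36 ± 0.09). For BRCA1 and BRCA2 the effects of the other lines were far apart, −1.40 and −1.16 in MDAMB231 beside −0.11 and 0.21 in SUM159. The count was 0 without any 1 HCC1806 library, 4 without the DMSO or JQ1 library of SUM159, 5 without its GSK2801 or combination library, and 20 without the JQ1 library of MDAMB231.

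Most of the 39 genes, like most of all tested genes, lay above the median of proliferation genes in MDAMB231. The comparison list held 31 genes of mitosis and cell division, and a second list held 40 genes of DNA replication. In MDAMB231 the medians of the proliferation list were −1.05 with JQ1 and −2.27 with both, and those of the replication list −1.05 and −1.61, beside −0.75 and −1.28 for the repair genes. Of the repair genes 35 of 39 lay above the proliferation median with JQ1 and 36 of 39 with both. So did most of all tested genes, of which 9.17% with JQ1 and 14.3% with both lay at least 2-fold below DMSO. The 3 repair genes below the proliferation median with both were FANCD2, RAD51AP1 and RAD54L, and these with XRCC2 were the 4 below it with JQ1. In SUM159 the proliferation median was −0.35 with JQ1 and −0.35 with both, and 7 and 12 of the 39 genes lay below it, RAD51D and FANCD2 lowest. In HCC1806 the proliferation median was −0.00 with JQ1 and 0.04 with both, and 13 and 20 of the 39 genes lay below it. Of all 14232 tested genes, 6862 with JQ1 and 7412 with both lay below DMSO in HCC1806. The share of all tested genes below the proliferation median was not counted in SUM159 or HCC1806. In HCC1806, RAD51D, RAD51AP1, RAD54L, TOPBP1 and FANCD2 lay furthest below DMSO with JQ1, and RAD51D, RAD51AP1, TOPBP1, FANCD2 and XRCC3 with both. The JQ1 effect of the line model was lower for 31 of 31 proliferation genes and 38 of 40 replication genes in MDAMB231, with medians of −1.60 and −1.27.

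**Figure D4:**
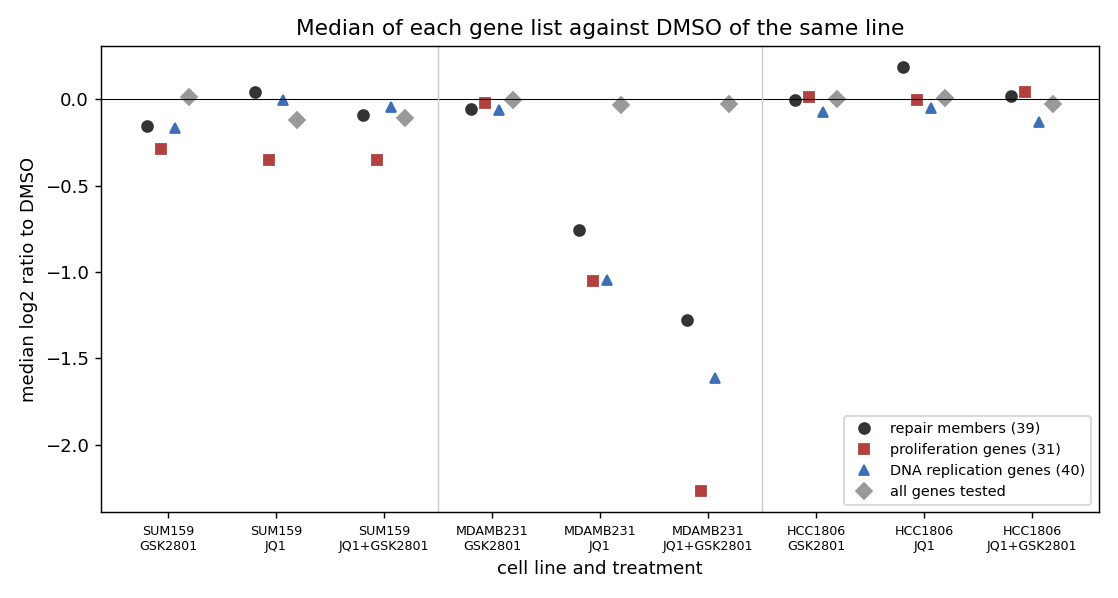
Median log2 ratio to DMSO of the same line (vertical axis) for the 39 repair genes, 31 proliferation genes, 40 DNA replication genes and all 14232 tested genes, by line and treatment with 1 library each. In MDAMB231 with both, the medians are −1.28, −2.27, −1.61 and −0.03, while in HCC1806 all lie within 0.2 of 0.

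When each library was centred on the mean log2 value of the proliferation list, no repair gene passed in limma with JQ1 or with both. In these contrasts 0.239% and 8.62% of all tested genes passed as higher and 0.0703% and 0.330% as lower. At an unadjusted p under 0.05 there were 0 and 5 of the 39 genes, beside 1450 and 4417 of all 14232 genes. The centred median of the repair genes was 0.24 with JQ1 and 0.48 with both, beside 0.35 and 0.80 over all tested genes, so the centring shifts every gene upwards. FANCD2 had the lowest centred value with both (−1.38 ± 0.46, adjusted p = 0.0600), followed by RAD51D (−0.93 ± 0.54, 0.228) and RAD51AP1 (−0.59 ± 0.46). ATM (1.32 ± 0.49, 0.0836) and WRN (1.18 ± 0.50) had the highest. Without MDAMB231, 2 genes were lower and 2 higher, and centring on the replication list gave 1 lower.

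The promoters of the 4 genes with the largest falls with both compounds among those that passed, and of ATM, the 1 gene that passed as higher with JQ1, are shown because the E2F word and the CHR are the elements through which S phase and mitosis genes are commonly controlled. The sequences are from RefSeq, on GRCh38.p14, and run from 250 bases before to 50 after the annotated start, 5′ to 3′ on the gene's strand. Capitals mark a match to an E2F word (TTTCCCGC, TTTGGCGC, TTTCGCGC or TTTGCCGC), a CHR (TTTGAA or TTCGAA) or a CCAAT box (CCAAT), each searched on both strands, with no overlap counted between the motifs. The windows were RAD51D, chr17:35119709-35120008, minus strand; FANCD2, chr3:10026187-10026486, plus strand; RAD51AP1, chr12:4538640-4538939, plus strand; TOPBP1, chr3:133661892-133662191, minus strand; and ATM, chr11:108222817-108223116, plus strand.
RAD51D: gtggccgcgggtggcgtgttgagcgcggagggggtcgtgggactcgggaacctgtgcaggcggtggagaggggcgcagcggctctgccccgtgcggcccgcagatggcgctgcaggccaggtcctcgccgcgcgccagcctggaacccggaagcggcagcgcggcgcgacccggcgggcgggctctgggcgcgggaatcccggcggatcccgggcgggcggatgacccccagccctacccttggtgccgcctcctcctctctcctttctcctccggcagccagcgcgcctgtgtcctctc
FANCD2: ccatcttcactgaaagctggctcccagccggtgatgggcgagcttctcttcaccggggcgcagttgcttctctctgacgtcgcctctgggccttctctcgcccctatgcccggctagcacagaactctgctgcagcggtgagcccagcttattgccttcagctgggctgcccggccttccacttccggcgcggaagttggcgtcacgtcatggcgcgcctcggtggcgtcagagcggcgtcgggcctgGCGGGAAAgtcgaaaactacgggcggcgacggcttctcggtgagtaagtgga
RAD51AP1: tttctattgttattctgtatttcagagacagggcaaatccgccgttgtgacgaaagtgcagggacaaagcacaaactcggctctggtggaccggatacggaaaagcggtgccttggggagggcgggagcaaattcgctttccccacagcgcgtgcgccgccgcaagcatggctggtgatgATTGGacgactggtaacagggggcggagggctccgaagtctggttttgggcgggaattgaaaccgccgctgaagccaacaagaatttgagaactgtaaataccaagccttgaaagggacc
TOPBP1: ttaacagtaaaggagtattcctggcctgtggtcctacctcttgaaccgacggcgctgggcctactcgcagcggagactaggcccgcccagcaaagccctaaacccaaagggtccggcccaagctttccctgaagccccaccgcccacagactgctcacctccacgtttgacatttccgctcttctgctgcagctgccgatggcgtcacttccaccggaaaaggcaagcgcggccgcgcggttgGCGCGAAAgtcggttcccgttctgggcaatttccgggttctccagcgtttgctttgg
ATM: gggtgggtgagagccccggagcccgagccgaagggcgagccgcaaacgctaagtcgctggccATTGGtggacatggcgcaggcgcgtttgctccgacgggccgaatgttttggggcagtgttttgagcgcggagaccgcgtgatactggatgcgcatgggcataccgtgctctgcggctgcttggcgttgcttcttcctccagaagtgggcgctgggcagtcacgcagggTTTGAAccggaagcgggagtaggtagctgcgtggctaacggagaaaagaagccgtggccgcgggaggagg
FANCD2 and TOPBP1 each had 1 E2F match, at −2 and −7 from the start. RAD51AP1 had a CCAAT box at −70, and ATM had a CHR at −20 and a CCAAT box at −188. RAD51D, the gene lower in all 3 lines, had none of these letters in this window.

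A promoter was found for 35 of the 39 genes, the 4 without an entry being FANCI, NBN, RAD54B and WRN. An E2F word was present in 8 of the 35 (22.9%), namely CLSPN, EXO1, FANCA, FANCC, FANCD2, MSH6, TOPBP1 and XRCC2, beside 3.32% of all promoters, 11.5% of those of the proliferation list and 58.3% of those of the replication list. A CHR was present in 14.3% of the 35, 16.4% of all promoters and 73.1% of the proliferation promoters. A CCAAT box was present in 42.9%, 34.6% and 80.8%. A match is a description of the letters and was not tested against the response. The 8 genes with an E2F word had combination differences from −2.26 (FANCD2) to 0.09 (CLSPN).

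Other repair genes outside the 39 were counted in separate lists. Of 34 further homologous recombination and Fanconi genes, 9 were lower and 2 higher with both, with a median of −0.33. The lower ones included the Fanconi core partner FAAP24 (−1.44 ± 0.21), C17orf53 (−1.21 ± 0.22), the BCDX2 gene RAD51B (−0.85 ± 0.21) and the FANCD2 ubiquitin-conjugating enzyme UBE2T (−0.84 ± 0.28). Of 24 further damage signalling genes, 8 were lower and 2 higher, with CDC25A, the phosphatase that CHEK1 targets, at −1.43 ± 0.35, the replication fork protein TIPIN at −1.21 ± 0.22 and PAXIP1 at −0.85 ± 0.24. FAM175A, which encodes the Abraxas scaffold of a BRCA1 complex, was higher, at 1.12 ± 0.16. Of 11 end joining genes, 5 were lower and none higher, among them the ligase IV partner XRCC4 (−1.32 ± 0.18), the nuclease DCLRE1C (−0.93 ± 0.14), C9orf142 (−0.49 ± 0.15) and the Ku subunit XRCC5 (−0.43 ± 0.13). Of 30 mismatch and excision repair genes, 6 were lower and 7 higher, with ERCC8 (−1.25 ± 0.24), LIG3 (−1.09 ± 0.15) and PARP2 (−0.93 ± 0.16) among those with large differences. The replication list had 13 of 40 lower and the proliferation list 6 of 31, and their largest differences were those of E2F2 (−2.49 ± 0.30) and AURKA (−1.49 ± 0.40). All these counts stand against the 19.8% lower and 15.0% higher over all tested genes.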

How the data were processed

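RNA of 12 libraries, 3 cell lines by 4 treatments, was analysed. Per the submitters' processing notes, the authors used STAR 2.4, Salmon 0.60 and the hg38 build. Annotation, filter and scaling are not given in the sources used here. The labels name 2 different library kits, so strandedness is unclear. The deposited values were taken as signal, meaning estimated read counts scaled to 1 upper quartile per library, per the values in the deposited files, of which 59.8% to 68.9% were whole multiples of 1 step (tolerance 0.02). Of 28539 entries, 27 with date symbols were left out. Genes with a mean of at least 10 were tested as log2(value + 1) in limma 3.58.1 (R 4.3.3) with a variance trend and the line as block, with 6 residual and 3.02 prior degrees of freedom. The line model had 3 and 4.48. P-values were adjusted by Benjamini-Hochberg at 0.05. Replicates 1, 2 and 3 are SUM159, MDAMB231 and HCC1806, so the pairing comes from the cell line. Correlations were 0.935 to 0.993 between libraries of a line and 0.685 to 0.810 between lines. Because a line's JQ1 effect enters both of its JQ1-containing libraries, the residuals are not independent and p-values may be too small. On simulated data with 14232 genes, the JQ1 contrast recovered 48% of log2 changes of 1 and 71% of those of 2, with 5.56% of calls false, and the contrast of the JQ1 effect in MDAMB231 and SUM159 28% and 60%, with 7.37% false. For each size 100 genes were changed. For the JQ1 contrast the change was equal in all 3 lines and absent from the combination libraries, unlike the real data. Whether these percentages of recovered and false calls hold where residuals are not independent was not tested. Nor was it tested whether they hold where effects differ between lines or more genes change. Promoters came from RefSeq and gene positions from GENCODE v29. All 39 members are described by role, with values in every library for each gene that passed with JQ1 or both and for BRCA1, BRCA2, RBBP8, ATM, CHEK1 and PARP1, and from each other list up to 4 passing genes with the largest combination difference. 1 gene that this rule names is not reported here. Members and lists were chosen with earlier results of these data known.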

Additional observations from a re-analysis of the deposited data

Results flagged for a closer look

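A difference between cell lines in the JQ1 effect, tested as such with limma, drew attention to these genes, and values are log2 differences between effects. Higher in HCC1806 than in the mean of SUM159 and MDAMB231 were BLM (1.03), BRCA1 (0.98), BRCA2 (0.89), BRIP1 (0.80), BARD1 (0.78), RBBP8 (0.67), ATM (0.59), PARP1 (0.55), XRCC1 (0.55), CHEK1 (0.52), MSH6 (0.40) and ATR (0.36). Lower in MDAMB231 than in SUM159 by the widest gaps were FANCD2 (−2.34), XRCC2 (−2.13), CLSPN (−1.75), RAD54B (−1.72), RAD54L (−1.62), FANCI (−1.62), EXO1 (−1.60), BLM (−1.58), POLQ (−1.58) and BRIP1 (−1.47). The next were FANCB (−1.46), BRCA2 (−1.37), EME1 (−1.35), RAD51AP1 (−1.33), BRCA1 (−1.29), XRCC3 (−1.24), BARD1 (−1.15), FANCG (−1.08), RAD51C (−1.03) and CHEK1 (−1.02). The remaining genes with a lower effect were TOPBP1 (−0.97), FANCA (−0.90), MSH6 (−0.70), FANCM (−0.67), FANCL (−0.67), RBBP8 (−0.49), PARP1 (−0.44) and ATR (−0.41). RAD50 (0.39) had the higher effect in MDAMB231. Many proliferation and replication genes passed in these tests too, as given above. Line, JQ1 dose and medium cannot be told apart in the comparison with HCC1806, and line and dose in that of MDAMB231 with SUM159. Groups held 3 libraries, so single outlying libraries were not tested for.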

How the results depend on the processing

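The 8 falls with both compounds and the 2 changes with JQ1 kept their direction under every alternative run, while 21 of the other 37 genes with JQ1 and 19 of the other 31 with both changed sign under some alternative, 16 each without MDAMB231. Genes lower with both numbered 5 under TMM rescaling, 5 under quantile normalization and 1 with only the 6 libraries compared, and genes higher 2, 1 and 0. Without the replicate block, that is without the pairing by cell line, 0 genes were lower or higher with both and 0 lower or higher with JQ1. The 1 gene higher with JQ1 also became 0 with a pseudocount of 10, no filter, no variance trend or only 6 libraries. Leaving out replicates gave 0 to 1 higher and 0 to 6 lower with JQ1, and 0 to 1 higher and 3 to 9 lower with both. Relative to proliferation genes it gave 0 to 2 higher and 0 to 2 lower with both, and centring on the replication list gave 1 lower.

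For the JQ1 effect by line, genes higher in SUM159 numbered 8 under TMM rescaling, 9 under quantile normalization and 2 without the variance trend. In MDAMB231 they numbered 1 without the trend, and in HCC1806 5 under TMM rescaling, 6 under quantile normalization and 5 with a pseudocount of 10. Without the trend 4 genes were higher in HCC1806 than in the others, and 18 were lower and 0 higher in MDAMB231 than in SUM159, the last also 0 under TMM rescaling. Leaving out 1 library at a time, an alternative chosen after seeing the data, gave 0 to 5 higher and 1 to 5 lower in SUM159, 1 to 2 higher and 22 to 33 lower in MDAMB231, and 1 to 8 higher and 0 to 7 lower in HCC1806. It gave 0 to 20 higher for HCC1806 against the others, and 0 to 1 higher and 2 to 25 lower for MDAMB231 against SUM159. Leaving out a library of 1 line did not change the JQ1 effects estimated in the other lines, such as RAD51C in SUM159 (0.34). It changed their SE and adjusted p-values, because the lines share 1 estimate of the spread for each gene. Beyond this, the cause of these changes was not tested. With 1 library per line and treatment, no spread between cultures was measured.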

Other observations

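The lines also differed in the starting level of the repair genes. In DMSO, the highest line was at least 2 times the lowest for 14 of the 39 genes, and the median ratio was 1.80, from 1 library per line and with no test. All tested genes were not counted in this way, so no background share stands beside these values. RBBP8 had the widest ratio, 5.88, with 5609 in SUM159, 4181 in MDAMB231 and 954 in HCC1806. FANCE was next, at 3.48, with 1077 in MDAMB231, 595 in SUM159 and 309.7 in HCC1806. CHEK2 was at 706 in SUM159, 205 in MDAMB231 and 293 in HCC1806, a ratio of 3.44. RAD50 was at 7123 in SUM159 against 2476 in MDAMB231 and 2792 in HCC1806. POLQ was at 1276 in HCC1806, 918 in SUM159 and 467 in MDAMB231. RAD51D started lowest in HCC1806, at 297, beside 690.4 in SUM159 and 657 in MDAMB231, and with both compounds it was lower than with DMSO by 4.81 times in SUM159, 3.75 times in MDAMB231 and 2.44 times in HCC1806.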
